A study of Mus musculus with 6 samples.

Results

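The genes described here are 10 signalling genes that act directly behind Toll-like receptors: the adaptors Myd88, Ticam1, Ticam2 and Tirap, the kinases Irak1, Irak2, Irak3 and Irak4, and the ubiquitin ligases Traf3 and Traf6. They were chosen by name from a deposited table of 24752 genes, and each of the 10 names matched 1 row. The cells were mouse bone marrow-derived macrophages (BMDMs), obtained over 7 days from the marrow of mice aged 8 to 10 weeks and kept with M-CSF at 10 ng/ml. The labels give no strain, sex or genotype of the mice. The 6 libraries formed 3 groups of 2, with replicates B and C, and pairs of values below give B first. The groups were control, LPS (lipopolysaccharide, a bacterial cell wall component, 100 ng/ml for 3 h) and Glul_LPS (the same LPS treatment in cells labelled as overexpressing Glul, which encodes glutamine synthetase). Lentiviral vectors, either control or Glul, were applied for 36 h before LPS, but the labels do not say which vector was in the cells of the control and LPS groups. The promoter of the vector is not stated either, and there was no Glul group without LPS among these samples.

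Toll-like receptors signal by recruiting small adaptor proteins to their inner domains. MyD88, which serves all of these receptors except TLR3 and also the interleukin-1 receptors, assembles with IRAK4 and then IRAK1 or IRAK2, and this complex activates TRAF6 and through it TAK1, NF-kB and the MAP kinases. TIRAP bridges MyD88 to TLR4 and TLR2. TRAM, the product of Ticam2, bridges TRIF, the product of Ticam1, to TLR4, and TRIF engages TRAF3 and TBK1 for the induction of interferon beta. IRAK3, also named IRAK-M, restrains this signalling in macrophages.

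Levels are given in FPKM (fragments scaled to exon length and to library size), which are per length and so can be set side by side between genes. Library totals, recovered from the table, ran from 15649764 to 18691669 fragments. The 10 genes rested on 134 to 4914 recovered fragments per library, with the length of Ticam2 inferred. Changes are differences of log2(FPKM + 1) from one limma fit of all 6 libraries, with 95% intervals, and a gene passed at a Benjamini-Hochberg adjusted p under 0.05 over the 10962 genes that reached 1 FPKM in 2 or more libraries. All 10 genes were in that test, at 1 FPKM or more in each of the 6 libraries. Folds are plain ratios of mean FPKM without the added 1. They are therefore larger than the log2 changes printed beside them imply, and the intervals and p-values belong to the log2 changes. Glul itself stood at 140 and 140 FPKM in the control pair, 30.6 and 33.4 in the LPS pair, and 37.2 and 37.7 in the libraries labelled Glul_LPS, whose difference from LPS did not pass (log2 change 0.22, adjusted p = 0.122) but did with limma voom on recovered fragments (0.23, adjusted p = 0.0451). All 8 macrophage markers were detected, with Lyz2 the most abundant, and their sum was 20689 to 21284 FPKM in control, 15224 to 16365 in LPS and 17756 to 19000 in Glul_LPS. Of 8 neutrophil markers 3 reached 1 FPKM in 2 libraries, namely Csf3r (44.7 to 63.7 FPKM), S100a8 (4.86 to 7.37) and S100a9 (0.734 to 3.76), while Ly6g, Mpo and Elane were at most 0.218 FPKM. The neutrophil sum was 53.1 to 54.4 FPKM in control, 61.0 to 65.8 in LPS and 66.1 to 70.6 in Glul_LPS. The sum of 5 stromal markers, of which 3 reached 1 FPKM and Pdgfrb was the most abundant, went from 3.87 to 4.48 FPKM in control to 5.51 to 6.45 in LPS and 7.05 to 8.70 in Glul_LPS. That of 5 megakaryocyte markers, of which 2 did so and Pf4 was the most abundant, was 35.6 to 40.2, 23.0 to 24.1 and 26.9 to 27.4 FPKM. Of 6 dendritic cell markers 1 reached 1 FPKM in 2 libraries, with sums of at most 1.99 FPKM, and none of the lymphocyte, mast cell and erythroid markers did so. These sums move with the groups, and their part in the results was not tested. Nothing in the labels says that the replicates came from separate mice or cultures, and every p-value here reflects only the spread between libraries, which may be technical.

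Myd88, Irak2, Irak3 and Tirap were higher in LPS than in control, and Irak4, Ticam2, Traf3 and Irak1 were lower. Ticam1 and Traf6 did not pass. This comparison sets libraries of cells given LPS for 3 h beside control libraries, for genes that act behind Toll-like receptors. In all, 4 of the 10 genes rose and 4 fell, where 17.1% of all genes tested rose and 68% fell. The median log2 change of the 10 was −0.13, against −0.50 over all genes tested, and their median absolute change was 0.76, against 0.65. Because the median gene was itself lower in LPS, changes were also computed after centring each library on its median gene. On that scale 6 of the 10 rose and 4 fell, with backgrounds of 34.6% and 32.2%, and all 8 genes that had passed kept their direction and passed, while Ticam1 and Traf6 passed as higher. By libraries, 4 of the 10 were higher in both LPS libraries than in both controls and 5 were lower, where 19.5% of all genes were higher and 73% lower in this way. In bulk RNA, fewer cells of a type and less RNA per cell cannot be told apart.

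**Figure D1:**
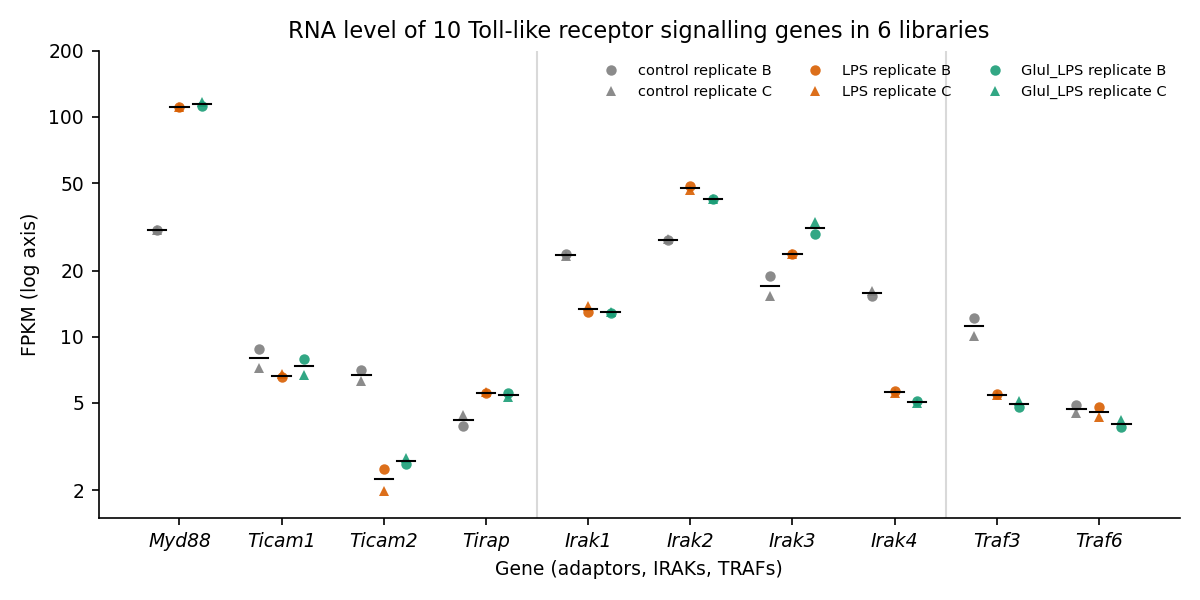
FPKM (log axis) of the 10 genes in every library, with circles for replicate B, triangles for replicate C and a black bar for the mean of each group. Myd88 stands near 31 FPKM in control and between 111 and 117 in the 4 LPS-treated libraries, while Irak4 goes from 15.4 or 16.2 to between 5.001 and 5.64.

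Upstream sequence is shown for the 2 genes with the largest rises and for 2 that fell, all 4 with few bases in annotated exons, so that genes that moved in opposite directions can be read side by side. Each line is the 250 bases before the RefSeq transcription start (build GRCm38.p6), 5′ to 3′ on the strand of the gene. Capitals mark matches, on either strand, to the NF-kB consensus motif, to the interferon response element core (GAAA repeated after any 2 bases), to the STAT site TTCNNNGAA or to the AP-1 site TGANTCA. The CCAAT box (those letters) and the TATA box (TATAAA) were searched too and are not in capitals.
Myd88, chr9:119340019-119340268, minus strand: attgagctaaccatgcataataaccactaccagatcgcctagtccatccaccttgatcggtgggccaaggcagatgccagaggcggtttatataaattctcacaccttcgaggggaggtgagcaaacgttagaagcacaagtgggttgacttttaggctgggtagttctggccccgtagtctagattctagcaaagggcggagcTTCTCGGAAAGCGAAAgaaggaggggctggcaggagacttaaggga
Irak2, chr6:113638217-113638466, plus strand: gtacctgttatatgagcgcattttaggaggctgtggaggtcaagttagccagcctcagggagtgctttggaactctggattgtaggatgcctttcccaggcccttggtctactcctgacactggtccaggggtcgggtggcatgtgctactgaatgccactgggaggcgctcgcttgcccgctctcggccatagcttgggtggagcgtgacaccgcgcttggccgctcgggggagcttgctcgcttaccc
Irak1, chrX:74023919-74024168, minus strand: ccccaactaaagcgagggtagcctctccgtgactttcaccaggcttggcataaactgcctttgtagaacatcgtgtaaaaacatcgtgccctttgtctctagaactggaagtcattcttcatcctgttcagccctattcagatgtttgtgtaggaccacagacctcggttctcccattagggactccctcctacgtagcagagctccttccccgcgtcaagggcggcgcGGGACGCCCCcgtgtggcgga
Traf3, chr12:111166120-111166369, plus strand: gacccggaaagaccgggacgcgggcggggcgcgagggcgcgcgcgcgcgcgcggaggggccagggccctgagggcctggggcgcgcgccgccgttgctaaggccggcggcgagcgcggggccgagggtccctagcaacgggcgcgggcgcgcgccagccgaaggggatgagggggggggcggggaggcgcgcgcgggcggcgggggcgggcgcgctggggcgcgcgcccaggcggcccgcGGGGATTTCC
For Myd88, 3 transcription starts are annotated, and the RefSeq start used here lies inside the annotated gene, downstream of its outermost start. Its window held an interferon response element core match that began 40 bases before this RefSeq start and overlapped a TTCNNNGAA match that began at 46. These 2 motifs were found in 2.98% and 7.02% of 32841 such windows of mouse genes. An NF-kB consensus match lay in the windows of Irak1 and Traf3, beginning 21 and 10 bases before the start, and such a match was found in 7.25% of all windows. The Irak2 window held none of the 4 motifs, and AP-1 sites, found in 6.75% of all windows, were in none of the 4 shown. TATA box matches began 164 and 160 bases before the start of Myd88 and were in 12.4% of all windows, and the CCAAT box, in 33.9% of all windows, was in none of the 4. The windows of Ticam1, Tirap, Irak3, Irak4 and Traf6 held none of the 4 motifs in capitals. GC content was 51.2% for Myd88, 60.0% for Irak2, 54.8% for Irak1 and 85.2% for Traf3, against a median of 52.4%. A match describes these letters only and does not show that a factor binds there.

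Among the adaptors, Myd88 (ENSMUSG00000032508, chromosome 9, 119335934 to 119341411 on the minus strand of GRCm38) was already the most abundant of the 10 genes in control. It stood at 30.7 and 30.5 FPKM in the control pair, 111 and 111 in the LPS pair, and 112 and 117 in the Glul_LPS pair. All 4 LPS-treated libraries thus lay far above both controls, with replicates that differed by little. From control (30.6 ± 0.119 FPKM) to LPS (111 ± 0.0731 FPKM, SD, n = 2 each), Myd88 rose 3.61-fold (log2 change 1.82, SE 0.04, adjusted p = 5.06e-07 by limma). This change was the largest of the 10 in size. Opposite-strand exons of Acaa1a cover 11.3% of the exon bases of Myd88, and Acaa1a stood between 26.5 and 31.0 FPKM in all 6 libraries.

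Tirap, the bridge from TLR4 to MyD88 (ENSMUSG00000032041, chromosome 9, 35184551 to 35200291, minus strand), was the least abundant of the 10 in control. Its values were 3.93 and 4.42 FPKM in the control pair, 5.53 and 5.59 in the LPS pair, and 5.57 and 5.33 in the Glul_LPS pair. No LPS-treated library reached down to the controls. Tirap rose 1.33-fold with LPS (log2 change 0.34, SE 0.07, adjusted p = 0.00379 by limma). Exons of Srpr and Gm39318 on the other strand cover 9.84% of its exon bases. Srpr, far more abundant than Tirap, stood between 40.73 and 45.25 FPKM in all libraries.

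The 2 adaptors of the TRIF arm did not follow. Ticam2, which encodes TRAM (ENSMUSG00000056130), stood at 7.07 and 6.27 FPKM in the control pair, 2.51 and 1.99 in the LPS pair, and 2.65 and 2.80 in the Glul_LPS pair. Every LPS-treated library was below both controls. Ticam2 was 2.96-fold lower in LPS (log2 change −1.24, SE 0.10, adjusted p = 4.9e-05 by limma). It rested on 134 to 519 recovered fragments per library, the fewest of the 10. These counts use an inferred length of 3928 bases, the shortest that gave whole fragments, so the true counts may be higher. Its exons share 14.5% of their bases with Tmed7 on the same strand, so fragments of the 2 genes may be split uncertainly. Tmed7 stood at 17.8 and 18.9 FPKM in the control pair and at 13.5 to 16.2 in the LPS-treated libraries.

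Ticam1, which encodes TRIF (ENSMUSG00000047123, chromosome 17, 56269319 to 56276786, minus strand), stood at 8.78 and 7.21 FPKM in the control pair, 6.54 and 6.78 in the LPS pair, and 7.95 and 6.73 in the Glul_LPS pair. The LPS libraries lay just below both controls, and those of Glul_LPS overlapped them. Its log2 change of −0.23 with LPS (95% interval −0.49 to 0.04, adjusted p = 0.0907) did not pass. It was −0.10 without control B (adjusted p = 0.445). It passed as lower without control C (log2 change −0.35, adjusted p = 0.0346) and on recovered fragments with limma voom (−0.26, adjusted p = 0.0425), and as higher relative to the median gene (0.29, adjusted p = 0.0478).

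Within a library, the balance of the adaptors can be given without any scaling between libraries. Myd88 made up 60.8% and 63.0% of the summed FPKM of the 4 adaptors in the control pair, and 87.4% to 88.7% in the 4 LPS-treated libraries. The ratio of Myd88 to Ticam1 was 3.50 and 4.24 in the control pair, against 14.1 to 17.3 in LPS-treated libraries. Tirap went from 0.556 and 0.705 times the level of Ticam2 in the control pair to between 1.90 and 2.80 times. With 2 libraries a group, an exact permutation test of such a ratio cannot go below p = 0.333, so these ratios are given without a test.

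The IRAK kinases split into 2 that rose and 2 that fell. Irak4, the kinase that MyD88 recruits first (ENSMUSG00000059883, chromosome 15, 94543643 to 94581815, plus strand), stood at 15.4 and 16.2 FPKM in the control pair, 5.64 and 5.54 in the LPS pair, and 5.08 and 5.001 in the Glul_LPS pair. The groups with and without LPS did not overlap. Irak4 was 2.82-fold lower in LPS (log2 change −1.35, SE 0.06, adjusted p = 3.99e-06 by limma), the largest fall of the 10 on this scale, although the plain FPKM ratio was larger for Ticam2. Opposite-strand exons of Twf1 cover 7.87% of its exon bases, and Twf1 stood between 37.7 and 41.8 FPKM in all libraries.

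Irak1, a kinase activated by IRAK4 (ENSMUSG00000031392, chromosome X, 74013914 to 74023918, minus strand), had 23.8 and 23.3 FPKM in the control pair, 13.0 and 13.9 in the LPS pair, and 12.8 and 13.0 in the Glul_LPS pair. The LPS-treated libraries lay in a narrow band well under the controls. Irak1 was 1.75-fold lower in LPS (log2 change −0.77, SE 0.05, adjusted p = 2.8e-05 by limma), and by −0.25 relative to the median gene (adjusted p = 0.00585).

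Irak2, which sustains signalling from the MyD88 complex (ENSMUSG00000060477, chromosome 6, 113638467 to 113695026, plus strand), had 27.5 and 27.8 FPKM in the control pair, 48.2 and 46.6 in the LPS pair, and 42.5 and 42.3 in the Glul_LPS pair. Both LPS libraries were above both Glul_LPS libraries, and all 4 were above control. Irak2 rose 1.72-fold with LPS (log2 change 0.76, SE 0.05, adjusted p = 1.43e-05 by limma).

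Irak3, which encodes the restraining family member (ENSMUSG00000020227, chromosome 10, 120141648 to 120202130, minus strand), had 18.9 and 15.3 FPKM in the control pair, 23.7 and 23.8 in the LPS pair, and 29.5 and 33.3 in the Glul_LPS pair. The 3 groups did not overlap, and the control libraries were further apart than those of LPS. Irak3 rose 1.39-fold with LPS (log2 change 0.46, SE 0.11, adjusted p = 0.00617 by limma). Exons of Tmbim4 and Gm47009 on the other strand cover 5.98% of its exon bases, and Tmbim4 stood between 29.0 and 30.5 FPKM throughout.

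Summed over the 4 genes, IRAK RNA stood at 85.5 and 82.5 FPKM in the control pair, 90.6 and 89.9 in the LPS pair, and 89.9 and 93.7 in the Glul_LPS pair. Its composition differed. Irak1 and Irak4 made up 27.8% and 18.0% of the sum in control B, and 28.2% and 19.6% in control C. In the LPS-treated libraries Irak1 made up 13.9% to 15.4% and Irak4 5.34% to 6.23%. Irak2 was the most abundant of the 4 in every library, at 32.1% and 33.7% in the control pair, 53.3% and 51.9% in the LPS pair, and 47.3% and 45.2% in the Glul_LPS pair. The ratio of Irak3 to Irak4 was 1.23 and 0.944 in the control pair, 4.20 and 4.30 in the LPS pair, and 5.80 and 6.66 in the Glul_LPS pair. Control libraries thus held about as much RNA of the restraining member as of the first kinase, per length, and LPS-treated libraries held several times more.

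**Figure D2:**
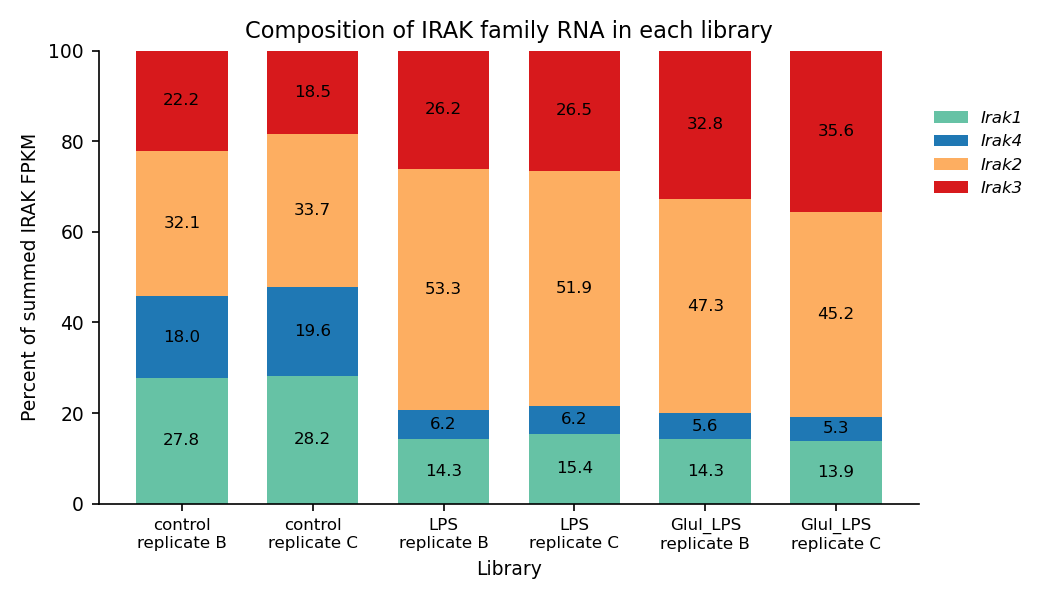
Share of each IRAK gene in the summed IRAK FPKM (y axis, percent) in each of the 6 libraries (x axis), stacked to 100. Irak1 and Irak4 shrink from the control bars to the LPS bars, and the share of Irak3 is 22.2% and 18.5% in control, 26.2% and 26.5% in LPS, and 32.8% and 35.6% in Glul_LPS.

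Of the TRAF genes, Traf3 (ENSMUSG00000021277, chromosome 12, 111166370 to 111267153, plus strand) stood at 12.2 and 10.1 FPKM in the control pair, 5.47 and 5.45 in the LPS pair, and 4.77 and 5.09 in the Glul_LPS pair. No LPS-treated library came near the controls. Traf3 was 2.04-fold lower in LPS (log2 change −0.91, SE 0.09, adjusted p = 0.000125 by limma). Relative to the median gene its log2 change was −0.39 (adjusted p = 0.00955 by limma). Traf6, the ligase downstream of the IRAKs (ENSMUSG00000027164, chromosome 2, 101678429 to 101701669, plus strand), stood at 4.91 and 4.51 FPKM in the control pair, 4.81 and 4.32 in the LPS pair, and 3.88 and 4.17 in the Glul_LPS pair. The LPS and control libraries overlapped. Its log2 change of −0.04 with LPS had a 95% interval of −0.23 to 0.15 (adjusted p = 0.658), and relative to the median gene it was 0.48 and passed (adjusted p = 0.00225). The ratio of Traf6 to Traf3 was 0.404 and 0.446 in the control pair, and 0.792 to 0.879 in LPS-treated libraries.

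The order of the levels changed accordingly. In control it ran Myd88, Irak2, Irak1, Irak3, Irak4, Traf3, Ticam1, Ticam2, Traf6 and Tirap, where the ranges of Irak3 and Irak4 overlapped and all other neighbours were apart. In LPS it ran Myd88, Irak2, Irak3, Irak1, Ticam1, Irak4, Tirap, Traf3, Traf6 and Ticam2, with overlap of Irak4 and Tirap. In Glul_LPS the order was the same except that Tirap stood above Irak4, whose range overlapped that of Traf3.

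Glul_LPS with LPS asked whether the Glul vector changed these genes under LPS. None of the 10 passed by limma at an adjusted p under 0.05, where 0.547% of all genes tested were higher and 0.556% lower. At an unadjusted p under 0.05, 1 was higher (Irak3) and 1 lower (Irak2), against 17.5% of all genes in either direction. Relative to the median gene none passed either, where 0.483% of all genes were higher and 0.73% lower. Irak3 was 31.4 ± 2.73 FPKM in Glul_LPS against 23.8 ± 0.0907 in LPS (SD, n = 2 each), a ratio of 1.32 and a log2 change of 0.38 (95% interval 0.13 to 0.64, adjusted p = 0.154). With limma voom on recovered fragments it passed (log2 change 0.40, adjusted p = 0.0115), the only one to do so of the 9 genes with a voom fit, which Ticam2 lacked. Irak2 was 42.4 ± 0.133 FPKM against 47.4 ± 1.14, a log2 change of −0.16 (95% interval −0.27 to −0.05, adjusted p = 0.165).

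The other 8 genes had log2 changes between −0.15 (Traf6) and 0.20 (Ticam2). Single libraries moved these small values: Ticam2 was 0.31 without LPS B and 0.0831 without LPS C, and Traf6 was −0.0833 without LPS B and −0.21 without LPS C. Myd88 had the tightest interval of the 10, −0.06 to 0.15. Ticam2, at −0.05 to 0.44, and Ticam1, at −0.14 to 0.38, had intervals that reach further upward. Irak4 (−0.27 to 0.01), Irak1 (−0.18 to 0.08), Traf3 (−0.34 to 0.10), Traf6 (−0.34 to 0.04) and Tirap (−0.20 to 0.15) had intervals that included 0. Counted by libraries, 3 genes were higher in both Glul_LPS libraries than in both LPS libraries (Myd88, Ticam2 and Irak3) and 5 were lower (Irak1, Irak2, Irak4, Traf3 and Traf6), where 27.7% of all genes tested were higher and 19.3% lower in this way.

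**Figure D3:**
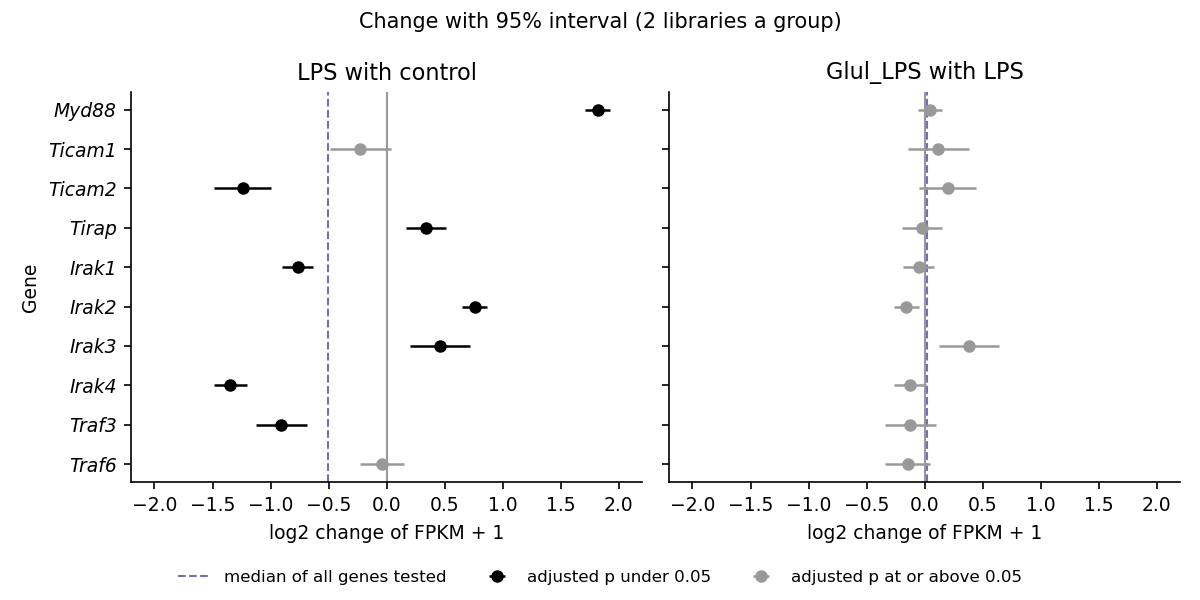
Log2 change of FPKM + 1 (x axis) of each gene (y axis) in LPS with control (left) and Glul_LPS with LPS (right), with bars for the 95% interval, black where the gene passed and grey where it did not. The dashed line is the median of all genes tested, at −0.50 on the left and 0.02 on the right, and the right panel shows no gene that passed.

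Glul_LPS with control uses the same control libraries as LPS with control, so its values are set beside those and are no separate support. Of the 10 genes, 4 rose and 4 fell, where 16.9% of all genes rose and 67.4% fell. Relative to the median gene 6 rose and 4 fell, where 34.2% and 31.7% of all genes did. By libraries without overlap, 4 of the 10 were higher and 5 lower, where 19.2% of all genes were higher and 72.7% lower. The log2 change was 1.87 for Myd88 (1.82 in LPS with control), 0.60 for Irak2 (0.76), 0.84 for Irak3 (0.46) and 0.32 for Tirap (0.34). It was −1.47 for Irak4 (−1.35 in LPS with control), −1.04 for Ticam2 (−1.24), −1.03 for Traf3 (−0.91) and −0.82 for Irak1 (−0.77). Ticam1 (−0.11, adjusted p = 0.381) and Traf6 (−0.19, adjusted p = 0.064) did not pass, and Traf6 passed as lower with limma voom (−0.23, adjusted p = 0.0212) but as higher relative to the median gene (0.30, adjusted p = 0.0166). Ticam1 passed as higher on that scale too (0.38, adjusted p = 0.0183).

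Around these genes, 79 further genes of the pathway were listed by role, and 70 had enough RNA to be tested. With LPS, 34 rose and 31 fell, where 17.1% of all genes tested rose and 68% fell. Relative to the median gene 43 rose and 16 fell, where 34.6% and 32.2% of all genes did. The median log2 change of the 70 was 0.04, against −0.50 over all genes. Of 18 receptors and co-receptors, 10 rose and 7 fell (13 and 4 relative to the median gene), with a median log2 change of 0.37. Tlr3, the receptor of double-stranded RNA that signals through TRIF alone, rose from 3.73 to 24.4 FPKM (log2 change 2.43), and the TLR4 co-receptor Ly96 and the RNA sensor Tlr7 rose by 1.28 and 1.18. Tlr5, the flagellin receptor, was 4.31 FPKM in control and 0.0252 in LPS (log2 change −2.36), and the nucleic acid sensors Tlr13 (−1.91) and Tlr9 (−1.49) fell too. Tlr4 itself, the LPS receptor, went from 15.0 to 8.26 FPKM (log2 change −0.79, adjusted p = 0.000137 by limma). Relative to the median gene its log2 change was −0.27 (adjusted p = 0.0246 by limma).

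Of 9 other adaptors and TRAFs, 5 rose and 3 fell (6 and 2 relative to the median gene), against the same shares of 17.1% and 68% as deposited. Traf1, a TRAF that lacks the ligase domain, rose from 7.37 to 44.6 FPKM (log2 change 2.45), followed by the adaptor Scimp (1.64) and Traf2 (1.00), while the endolysosomal transporter Slc15a4 (−1.20), Traf7 (−0.75) and Tmed7 (−0.31) fell, the last of them not relative to the median gene (0.21, adjusted p = 0.0828). In the branch of TAK1, the IKKs, TBK1 and the IRFs, 10 of 21 rose and 9 fell (13 and 5 after centring on the median gene). The largest rises were those of Irf7 (log2 change 1.85), the kinase Map3k8 (1.63) and Azi2 (1.60), an adaptor of TBK1. Tab1 (−1.70), a partner of TAK1, Map3k3 (−1.28) and Fadd (−0.87) had the largest falls. The last list was named negative regulators, a role that was assigned and not tested for any of its genes, Peli1 and Peli2 included. Of its 22 genes tested, 9 rose and 12 fell as deposited. After centring on the median gene these counts were 11 and 5, so the balance of the list turned with the scaling. Tnfaip3, the A20 protein that edits ubiquitin chains, had the largest rise (log2 change 3.38), with Nlrc5 (2.67) and the ligase Peli1 (2.39) next. Inpp5d, the lipid phosphatase SHIP1, went from 49.5 to 8.35 FPKM (log2 change −2.45), and Peli2 (−1.60) and the adaptor Dok2 (−1.47) fell as well.

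**Figure D4:**
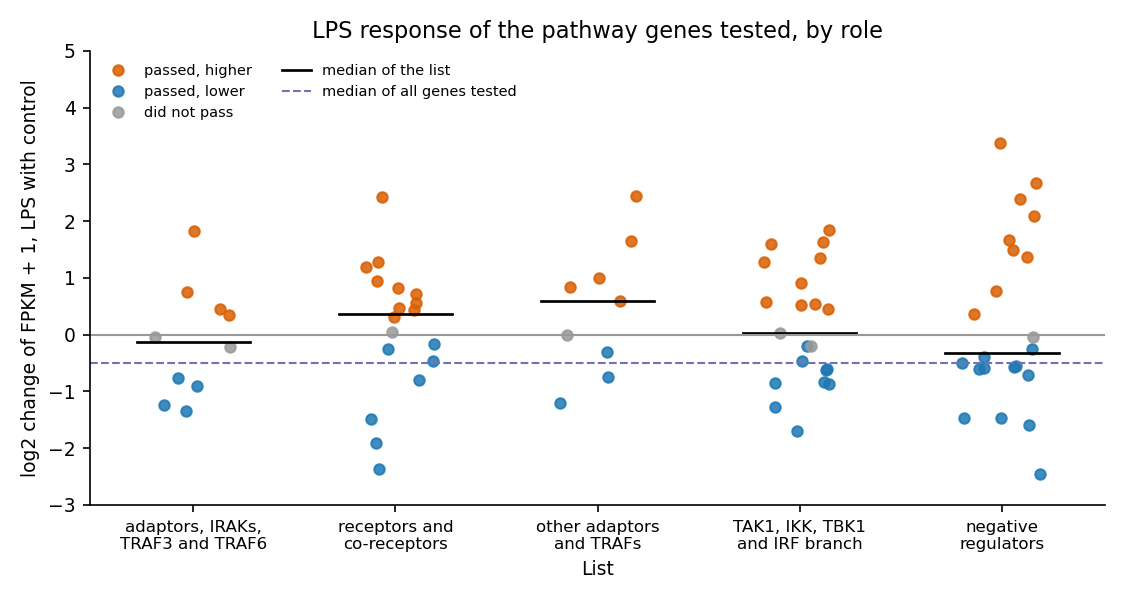
Log2 change of FPKM + 1 in LPS with control (y axis) for each tested gene of 5 lists (x axis), coloured by whether it passed as higher, as lower or not at all, with a black line for the median of each list. The dashed line is the median of all genes tested at −0.50, and every list holds genes that rose and genes that fell.

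Between Glul_LPS and LPS, 1 of the 70 pathway genes passed, as lower, where 0.547% of all genes were higher and 0.556% lower. Tnfaip3 fell, with 219 FPKM in LPS and 159 in Glul_LPS (log2 change −0.46, SE 0.05, adjusted p = 0.0243 by limma). That call was lost without any 1 of the LPS or Glul_LPS libraries. By role, the genes with the smallest p that did not pass were Ikbkg, the IKK scaffold (log2 change 0.39, adjusted p = 0.0515), Tlr2 (−0.31, adjusted p = 0.0671), Nlrx1 (0.40, adjusted p = 0.077) and Traf5 (0.23, adjusted p = 0.214).

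The profile over the 6 libraries was compared with that of every other named gene tested, as the root mean square difference of log2(FPKM + 1) after centring each gene on its mean. Myd88 was most like Fam102b (0.0378) and Ppfibp1 (0.0416), and 38 genes lay within 0.1. Irak3 had Gsr (0.0668) and Idi1 (0.0803) closest and 9 genes within 0.1, and Irak1 had Ing5 (0.0187) and Ubr1 (0.0192) closest and 1272 within 0.1. The difference was taken over single libraries, so the spread between replicates adds to it. Replicates of Irak3 lay apart in control (18.9 and 15.3 FPKM) and Glul_LPS (29.5 and 33.3 FPKM). Those of Ticam1 did too (8.78 and 7.21 in control, 7.95 and 6.73 in Glul_LPS), and 208 genes lay within 0.1 of it. The reason for the low count of Irak3 was not tested, and no unusual response is read from it. The closest genes were Wars and Aftph for Irak2, Tm6sf1 and Dennd4c for Irak4, Cul3 and Lsm14a for Tirap, Mks1 and Cnpy3 for Ticam2, Rpl19 and Cox5a for Ticam1, Slc35e4 and Akap1 for Traf3, and Htt and Nf1 for Traf6, at 0.0204 to 0.0532. These 6 libraries form 3 groups, so the points behind each likeness are not independent.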

How the data were processed

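Total RNA of BMDMs was sequenced on an Illumina HiSeq after NEBNext Ultra library preparation, as the labels' protocols state. The deposited values are FPKM per gene and library, computed by the authors. CASAVA, HISAT2 2.1.0, HTSeq 0.6.0, DESeq2 and the build GRCm38 are named in the submitters' processing notes, without order or role. The annotation, and whether counting used strand, were not stated. A further 6 value columns match no listed sample and were not used.

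FPKM times exon length (GENCODE M21) gave whole fragments, within 0.01, for 96.5% to 97.1% of single-block genes above 0 in each library, which recovered the library totals. For 9 of the 10 genes the M21 length gave whole fragments. For Ticam2 the shortest length that did so, 3928 bases, was used. Fragments were whole in all 6 libraries for 22655 genes, and limma voom was run on the 9579 of them that were among the genes tested. Its p-values, like those of the main fit, rest on the spread between libraries. Since FPKM is scaled to library totals, a change in a few abundant genes can shift all others, so median-centred values are given too.

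log2(FPKM + 1) of all 6 libraries entered one limma fit (limma 3.58.1, R 4.3.3, 6.27 degrees of freedom, two-sided, with a mean-variance trend). The code was also run on simulated data with few changed genes and no shift of the median gene. That run does not show how the fit performs on these data. The members and lists were chosen with earlier results of these data known. Genes named were all 10 members, Glul, up to 3 pathway genes per role and direction by size of change, those past the threshold (or nearest to it by role) in Glul_LPS with LPS, and the 2 genes closest in profile; Tlr4 and Tmed7 and the genes that overlap members were added after seeing the data. Upstream windows are from RefSeq (GRCm38.p6), where 9 of the 10 genes matched. Alternatives were other pseudocounts, filters, scalings and fits, limma voom, and leaving out each library.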

Additional observations from a re-analysis of the deposited data

How the results depend on the processing

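Of 501 recomputed log2 changes of the 10 genes, 473 kept their direction and their side of the threshold, 12 no longer passed, 4 newly passed in the same direction and 12 changed sign, of which 7 also passed, all of them Ticam1 or Traf6 after quantile normalization or centring. All 12 lost calls came from requiring a change above 1 on the log2 scale, which left 1 of the 10 higher and 1 lower in LPS with control and again 1 and 1 in Glul_LPS with control. Changes of sign concerned Ticam1, Traf6 and Tirap. With quantile normalization Ticam1 was 0.24 in LPS with control and 0.33 in Glul_LPS with control, and Traf6 was 0.52 and 0.35. Centred on the median gene, Ticam1 was 0.29 and 0.38, and Traf6 was 0.48 and 0.30. Leaving out single libraries, Traf6 in LPS with control ranged from −0.10 to 0.0246, Ticam1 in Glul_LPS with control from −0.23 to 0.0186, and Tirap in Glul_LPS with LPS from −0.0518 to 0.00167.

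For Glul_LPS with LPS, limma voom called 1 of the 10 genes higher, and 4 pathway genes higher and 3 lower. A filter at a mean of 5 FPKM called 1 pathway gene higher and 2 lower, and a robust spread 1 higher. The 1 pathway gene that fell (Tnfaip3) left a count of 0 with no filter, with no mean-variance trend, with a minimum change of 1, and in each fit without 1 library (0 to 0). Pathway genes that fell with LPS numbered 20 after quantile normalization, 16 after centring and 10 with a minimum change of 1, against 31, and those that rose numbered 15 with that minimum. In Glul_LPS with control 14 fell after centring, and 14 rose and 9 fell with the minimum. The cause of these differences was not tested beyond how each alternative is built.

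The letters B and C of the labels are not said to mark a shared mouse or day. Deviations of same-letter libraries correlated across genes at −0.02, 0.00 and −0.05 for the 3 pairs of groups, so the letters were not taken as pairs. With the letter as a replicate block, 4 of the 10 genes rose and 4 fell in LPS with control and none passed in Glul_LPS with LPS, as without it, while genes called higher in Glul_LPS with LPS over the whole table went from 60 to 37. Over the same table, voom called 279 higher and 269 lower in that comparison, and fits without 1 library 1 to 19 higher and 0 to 19 lower, against 60 and 61. It was 5 and 4 with no filter, 136 and 128 at a mean of 5 FPKM, 18 and 24 with no trend, 20 and 39 from the 2 groups alone and 0 and 0 with a minimum change of 1. In LPS with control, 1879 genes rose and 7459 fell, against 3044 and 4631 after quantile normalization, 3788 and 3530 after centring and 596 and 1070 with the minimum, and 3639 fell at a mean of 5 FPKM. With 100 bases in place of 250, NF-kB, interferon response element, TTCNNNGAA and AP-1 matches were in 3.00%, 0.98%, 2.55% and 2.73% of windows. Depth, as recovered with an inferred length, limits Ticam2 most.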
